A study of Rattus norvegicus with 8 samples.

Results

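The 39 interferon-stimulated genes described here were chosen by symbol, as genes known to be induced by interferon, and each symbol matched a single row of a table of 32623 rat genes. All 39 passed the filter on low counts and were among the 16715 genes tested. The table comes from RNA sequencing of lung tissue of Rattus norvegicus in 2 groups, 4 libraries labelled MCT and 4 labelled control. MCT stands for monocrotaline, a toxin of Crotalaria plants that damages lung vessels and is used in rats to model pulmonary hypertension. The labels give no strain, sex, age, dose, vehicle or time after treatment, and do not state whether each library is a different animal. The p-values therefore reflect only library-to-library spread, which may be technical. The comparison asks which transcripts differ between the lungs of treated and control rats.

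Interferons are secreted proteins that cells release on sensing viral or misplaced nucleic acid. Type I interferons bind the receptor chains Ifnar1 and Ifnar2, and the kinases Jak1 and Tyk2 then start a signal that leads a complex holding Stat2 and Irf9 to the interferon-stimulated response element (ISRE). Interferon gamma acts at the gamma-activated site (GAS) instead. The induced genes encode proteins that block viral replication, sense RNA, trim and load peptides for MHC class I, or restrain the response. In bulk lung, fewer cells of a type and less RNA per cell cannot be told apart.

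Estimated counts stood for about 10.9 M to 18.3 M read pairs per library. The lung markers Sftpc, Ager and Scgb1a1 were abundant in all 8 libraries, with Sftpc at 13663 FPKM or more (fragments per kilobase, a level scaled to transcript length and to the library's depth). The libraries MCT 1 and control 1 lay apart from the others on the second principal component (15.3% of the variance, 77.2 and 24.8 against -36.9 to -4.46).

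Most interferon-stimulated genes were highest in the same library of each group, MCT 3 and control 3. MCT 3 was the highest MCT library for 38 of the 39 members, against 24.6% of all genes tested, and control 3 was the highest control library for 34, against 24.3%. Both held for 33 members, against 4.96% of all genes. Of the 39 members, 4 were lower in MCT (Bst2, Ifi44l, Trim25 and Irf1), 1 was higher (Lgals3bp) and 34 were not past the threshold, a Benjamini-Hochberg adjusted p under 0.05 in edgeR's quasi-likelihood test. The 4 lower calls among 39 members are near the share of all tested genes called lower, 9.45%. The share of all tested genes called higher was 11.0%. The median log2 fold change (MCT minus control) of the members was -0.33, with 29 below 0 (74.4%), against a median of 0.03 over all genes tested, of which 47.6% were below 0. Without MCT 3, 12 members were called lower and none higher, against 6.47% and 7.39% of all genes tested in that edgeR fit. In the same fit 1 member was higher at an unadjusted p under 0.05. MCT 3 was singled out for its high values in these same genes. Lower fold changes without it follow from that choice, and the count of 12 is only a description. Markers of other cells also differed between the groups. Of 11 T and NK cell markers, 5 were lower in MCT and 1 was higher. Of 5 endothelial markers 3 were lower and none higher, and of 7 macrophage markers 4 were higher and none lower. The part of these cells in the members' differences was not tested.

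**Figure D1:**
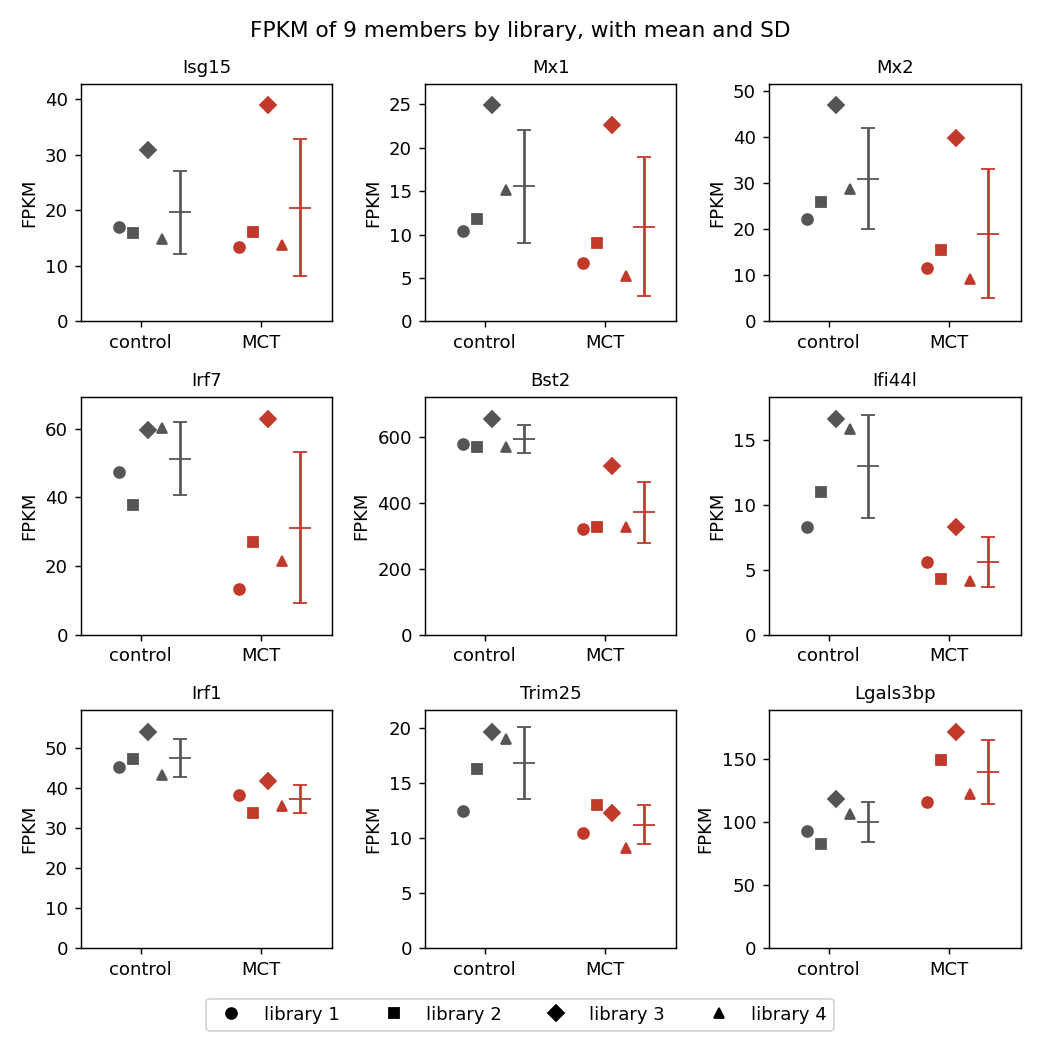
FPKM of 9 members in each library (grey, control; red, MCT; marker shape gives the library number), with the mean and SD of each group's 4 libraries beside the points. Library 3, the diamond, was the highest of its group in every panel except Irf7 in control, where control 4 was at 60.1 and control 3 at 59.6, and Trim25 in MCT, where MCT 2 was at 13.0 and MCT 3 at 12.3.

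Bst2 encodes tetherin, a membrane protein that holds budding virus at the cell surface, and lies on chromosome 16 from 19938784 to 19942353 in the files' build, Rnor_6.0. Its level was 321, 328, 513 and 326 FPKM in MCT 1 to 4 and 579, 571, 657 and 571 FPKM in control 1 to 4. The groups did not overlap, and MCT 3 stood apart from the other MCT libraries towards the controls. Bst2 fell by 0.68 on the log2 scale (SE 0.15, edgeR adjusted p = 0.0127), from 595 ± 41.9 to 372 ± 93.9 FPKM (SD, n = 4). It was called lower in all 20 refits with other tools, filters, scalings or libraries.

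Ifi44l is an interferon-induced gene of the Ifi44 family (chromosome 2, 256964860 to 256978668). It was at 5.58, 4.32, 8.34 and 4.15 FPKM in MCT 1 to 4 and at 8.33, 11.0, 16.7 and 15.9 FPKM in control 1 to 4. MCT 3 and control 1 met at 8.34 and 8.33 FPKM, so the groups touched. The log2 fold change was -1.21 (SE 0.28, edgeR adjusted p = 0.0166), and without MCT 2 it was -1.11 with an adjusted p of 0.0529. Its neighbour Ifi44, 49291 bases away, was at -0.44 (SE 0.21, adjusted p = 0.166).

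Irf1, a transcription factor that both interferon gamma and type I interferon induce, lies on chromosome 10 from 39109522 to 39116531. Its level was 38.1, 33.6, 41.8 and 35.4 FPKM in MCT 1 to 4 and 45.3, 47.2, 54.0 and 43.15 FPKM in control 1 to 4, with no overlap. The log2 fold change was small, -0.35 (SE 0.10, edgeR adjusted p = 0.0356). The call was lost without MCT 2, MCT 4, control 2 or control 3, at adjusted p of 0.0992, 0.0702, 0.069 and 0.0846. Irf1 and Bst2 were the only members whose groups did not overlap. All MCT values lay below all control values for 11.7% of all genes tested, and above them for 13.3%.

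Trim25, a ubiquitin ligase that activates the RNA sensor encoded by Ddx58, lies on chromosome 10 from 76343847 to 76362145. It was at 10.4, 13.0, 12.3 and 9.07 FPKM in MCT 1 to 4 and at 12.45, 16.3, 19.6 and 19.0 FPKM in control 1 to 4. MCT 2 lay above control 1. The log2 fold change was -0.59 (SE 0.16, edgeR adjusted p = 0.0318), and the call was lost without any 1 of MCT 1, MCT 3, MCT 4, control 2, control 3 or control 4 (adjusted p of 0.0563, 0.0575, 0.0771, 0.0688, 0.0811 and 0.079).

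Lgals3bp, which encodes a secreted glycoprotein that binds galectin 3, was the only member called higher (chromosome 10, 107415326 to 107424710). It was at 116, 149, 171 and 122 FPKM in MCT 1 to 4 and at 92.6, 82.2, 118 and 106 FPKM in control 1 to 4. Control 3 lay above MCT 1. The log2 fold change was 0.48 (SE 0.14, edgeR adjusted p = 0.0434). The call was lost without MCT 2, MCT 3, MCT 4, control 1, control 2 or control 4, with adjusted p of 0.109, 0.111, 0.0514, 0.0963, 0.116 and 0.0795, and also with DESeq2 size factors (0.0506).

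The promoters of the members are shown as a description, since the ISRE is the element through which type I interferon reaches its targets. RefSeq promoters (build GRCr8, not the build of the files) were matched by symbol for 29 of the 39 members. Isg15, Mx2, Oas2, Ifit1, Ifit2, Ddx58, Dhx58, Zbp1, Usp18 and Rtp4 had no entry. A core ISRE, read as GAAA, any 2 bases and GAAA on either strand, was found in 18 of the 29 windows of 250 bases before to 50 after the start (62.1%), against 3.92% of 33469 rat promoters and 2.95% of the 11265 promoters whose symbol was among the genes tested. A GAS, TTCNNNGAA (the same on both strands), was found in 7 windows (24.1%), against 8.87% and 6.68%. The members were chosen as genes known to be induced by interferon, so a share above that of all promoters follows from that choice. Whether these elements have a part in the library 3 pattern was not tested. A match is a description of the letters and not a measured binding site. The 250 bases before the start are printed for the 4 called members with a match, 5′ to 3′ on the gene's strand, with ISRE and GAS matches in capitals. Trim25, the fifth called member, had no match in its window.

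Bst2, chr16:18254968-18255217 (GRCr8, minus strand): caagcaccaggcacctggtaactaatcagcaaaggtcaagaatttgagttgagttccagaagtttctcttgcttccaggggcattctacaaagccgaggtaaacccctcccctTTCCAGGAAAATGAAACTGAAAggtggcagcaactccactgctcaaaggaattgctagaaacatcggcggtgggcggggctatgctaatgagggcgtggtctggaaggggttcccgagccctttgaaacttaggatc
Ifi44l, chr2:243328473-243328722 (GRCr8, plus strand): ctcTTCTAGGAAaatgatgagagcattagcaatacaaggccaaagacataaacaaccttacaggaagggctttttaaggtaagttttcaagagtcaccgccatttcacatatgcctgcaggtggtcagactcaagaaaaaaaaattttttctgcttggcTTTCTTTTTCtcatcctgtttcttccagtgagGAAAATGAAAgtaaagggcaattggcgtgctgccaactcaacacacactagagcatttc
Irf1, chr10:38417685-38417934 (GRCr8, plus strand): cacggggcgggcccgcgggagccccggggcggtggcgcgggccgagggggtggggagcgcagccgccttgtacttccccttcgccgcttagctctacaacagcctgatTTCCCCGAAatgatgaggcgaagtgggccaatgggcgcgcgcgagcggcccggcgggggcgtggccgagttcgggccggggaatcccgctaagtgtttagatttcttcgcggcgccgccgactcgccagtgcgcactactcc
Lgals3bp, chr10:104127849-104128098 (GRCr8, minus strand): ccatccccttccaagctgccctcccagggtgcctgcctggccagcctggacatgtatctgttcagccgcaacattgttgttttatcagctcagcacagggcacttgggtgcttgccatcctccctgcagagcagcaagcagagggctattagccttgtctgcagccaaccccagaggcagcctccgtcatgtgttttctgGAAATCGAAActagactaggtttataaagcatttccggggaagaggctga

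In Bst2 a GAS and 2 overlapping ISRE matches run together from 137 bases before the start. Irf1 held a GAS and no ISRE, while Lgals3bp held an ISRE and no GAS. Short stretches around the ISRE of 5 other members are shown for comparison, each with 15 bases on either side. In Oas1a 2 matches overlap, and in Ifit3, Irf7 and Gbp2 the element runs on the opposite strand, as TTTC, any 2 bases and TTTC.

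Oas1a, chr12:41330410-41330455 (GRCr8, plus strand): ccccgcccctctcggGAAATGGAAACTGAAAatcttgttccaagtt
Ifit3, chr1:241527267-241527306 (GRCr8, plus strand): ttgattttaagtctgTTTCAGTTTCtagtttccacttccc
Ifih1, chr3:67684003-67684042 (GRCr8, minus strand): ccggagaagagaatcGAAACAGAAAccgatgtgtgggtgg
Irf7, chr1:205800068-205800107 (GRCr8, minus strand): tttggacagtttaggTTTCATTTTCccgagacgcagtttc
Gbp2, chr2:234005681-234005720 (GRCr8, plus strand): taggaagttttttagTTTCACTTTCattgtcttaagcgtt

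Among the 13 antiviral effectors, MCT 3 was the highest MCT library for all 13 and control 3 the highest control library for 12. Isg15 encodes a ubiquitin-like protein that is attached to other proteins. It was at 13.3, 16.0, 38.9 and 13.7 FPKM in MCT 1 to 4 and at 16.9, 16.0, 30.8 and 14.8 FPKM in control 1 to 4. Apart from library 3, the Isg15 values of both groups lay between 13.3 and 16.9 FPKM, and its log2 fold change was 0.05 (95% interval -0.84 to 0.94). Its sign turned under other settings, as given in the closing section.

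The GTPases Mx1 and Mx2, which block viral replication, lie 120467 bases apart on chromosome 11. Mx1 was at 6.77, 9.08, 22.6 and 5.2 FPKM in MCT 1 to 4 and at 10.4, 11.8, 24.9 and 15.1 FPKM in control 1 to 4. Mx2 was at 11.6, 15.5, 39.7 and 9.24 FPKM in MCT 1 to 4 and at 22.2, 25.9, 46.8 and 28.6 FPKM in control 1 to 4. For both genes MCT 1, 2 and 4 lay below every control library, and MCT 3 lay above 3 of the 4. The log2 fold changes were -0.52 (95% interval -1.65 to 0.60) for Mx1 and -0.71 (-1.80 to 0.38) for Mx2. Without MCT 3, Mx2 was called at -1.34 (edgeR adjusted p = 0.0231) and Mx1 was at -1.14, not past the threshold. MCT 3 was singled out for its high values in these genes, so the values without it are only a description. Mx1 and Mx2 are similar in sequence, so the split of reads between them is uncertain, as it is within the Oas, Ifit and Gbp families.

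The Oas genes encode synthetases whose product activates the antiviral nuclease RNase L. Oas1a was at 6.69, 8.31, 18.8 and 8.3 FPKM in MCT 1 to 4 and at 12.2, 15.5, 20.8 and 15.7 FPKM in control 1 to 4. Oas2 was at 1.33, 2.02, 6.42 and 1.78 FPKM in MCT 1 to 4 and at 2.82, 4.01, 5.61 and 5.05 FPKM in control 1 to 4. In both genes the 3 other MCT libraries lay below every control library. Neither was called in the fit of all 8 libraries given here (edgeR adjusted p of 0.21 and 0.418). Without MCT 3 both were called lower, at -1.04 and -1.34 (edgeR adjusted p of 0.0109 and 0.016). That library was singled out for its high values in these genes. These values, and that of Cmpk2 without MCT 3 below, are only a description. Oasl, which encodes an enzymatically inactive relative, was at -0.68 (SE 0.45), and Cmpk2, a mitochondrial nucleotide kinase next to Rsad2, at -0.54 (SE 0.21, adjusted p = 0.11, and -0.82 with 0.00482 without MCT 3). Rsad2, which encodes viperin, was at -0.38 (SE 0.35) and Eif2ak2, which encodes the RNA-dependent kinase PKR, at 0.15 (SE 0.20).

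The Ifit genes encode proteins that bind foreign RNA. Ifit3 was at 9.09, 6.47, 15.6 and 5.55 FPKM in MCT 1 to 4 and at 7.31, 6.3, 14.9 and 8.23 FPKM in control 1 to 4, with library 3 highest in each group. Ifit1 did not follow it. Its values were 0.26, 5.87, 12.7 and 3.86 FPKM in MCT 1 to 4 and 9.88, 0.04, 0.13 and 12.5 FPKM in control 1 to 4, so that MCT 1, control 2 and control 3 were close to 0. Ifit1 had the widest spread of the members in both groups (SD 1.75 and 2.50 on the log2(FPKM + 0.5) scale), and its log2 fold change of 0.01 had a 95% interval from -3.55 to 3.57.

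Among the 4 nucleic acid sensors no member was called by edgeR or DESeq2, and none had an unadjusted p under 0.05 in the main edgeR fit. In other edgeR fits Ifih1 was at an unadjusted p of 0.0155 without MCT 3 and 0.0368 without MCT 3 and control 3. With a replicate block the unadjusted edgeR p was 0.0364 for Ifih1 and 0.0181 for Ddx58. Ddx58 and Ifih1, which encode the cytoplasmic RNA sensors RIG-I and MDA5, were at -0.35 (SE 0.28) and -0.34 (SE 0.19). Dhx58, their relative, was at -0.26 (SE 0.22). Zbp1, a sensor of left-handed nucleic acid that can start cell death, was the least abundant member, with a mean of 0.994 FPKM over all 8 libraries. It was at 1.77 FPKM in MCT 3 and 2.05 FPKM in control 3, against 0.61 to 1.08 and 0.38 to 0.78 FPKM in the other libraries of each group.

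Of the 4 transcription factors, Irf7, which amplifies type I interferon production, varied most within MCT. It was at 13.4, 27.0, 62.9 and 21.5 FPKM in MCT 1 to 4 and at 47.4, 37.9, 59.6 and 60.1 FPKM in control 1 to 4. MCT 3 was above every control library and the other MCT libraries were below every one. The log2 fold change was -0.73 (SE 0.43, edgeR adjusted p = 0.283), and -1.30 without MCT 3 (adjusted p = 0.0147). The value without MCT 3 is only a description, since that library was singled out for its high values in these genes. Irf7 overlaps Phrf1 on the other strand, and whether the counting used strand is not given in these sources. Irf9 and Stat2, which act together at the ISRE, were at -0.25 (SE 0.15) and -0.25 (SE 0.16).

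The modifiers act on ubiquitin, ISG15 or ADP-ribose. Usp18, which removes ISG15 and dampens receptor signalling, was at 7.54, 9.84, 22.9 and 5.92 FPKM in MCT 1 to 4 and at 10.02, 11.1, 23.1 and 15.4 FPKM in control 1 to 4. Library 3 was the highest of both groups, and the log2 fold change was -0.38 (SE 0.44). Herc6, the ligase that attaches ISG15 in rodents, was at -0.65 (SE 0.36, edgeR adjusted p = 0.245), and at -1.04 without MCT 3 (adjusted p = 0.0471). The Herc6 value without MCT 3 is only a description, since that library was singled out for its high values. Parp9 and Dtx3l, partner proteins encoded 1129 bases apart, were at -0.12 (SE 0.12) and -0.33 (SE 0.17), and Parp14 was at -0.07 (SE 0.18).

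The guanylate-binding proteins and the antigen-processing genes respond strongly to interferon gamma, and none of these 5 members was called by edgeR or DESeq2 or had an unadjusted edgeR p under 0.05. Gbp2 was at 26.3, 29.9, 45.8 and 29.2 FPKM in MCT 1 to 4 and at 28.6, 31.1, 36.9 and 26.75 FPKM in control 1 to 4, and Gbp5 had a log2 fold change of -0.13 (SE 0.20). Psmb8 and Psmb9 encode immunoproteasome subunits and Tap1, which lies between them on chromosome 20, a peptide transporter. The gaps are 190 bases from Psmb9 to Tap1 and 944 bases from Tap1 to Psmb8. Psmb8 was at 23.2, 39.2, 39.97 and 23.0 FPKM in MCT 1 to 4 and at 20.1, 26.25, 43.25 and 26.5 FPKM in control 1 to 4, with MCT 2 as high as MCT 3. The log2 fold changes of Psmb8, Psmb9 and Tap1 were 0.10 (SE 0.27), -0.08 (SE 0.17) and -0.15 (SE 0.19).

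The remaining members include the most abundant one. Ifi27, which encodes a small mitochondrial membrane protein, was at 485, 551, 824 and 484 FPKM in MCT 1 to 4 and at 545, 497, 539.5 and 502 FPKM in control 1 to 4. The controls were close together and MCT 3 stood above all 7 other libraries, with a log2 fold change of 0.16 (SE 0.16). Ifi35 was the only member besides Ifit1 that lay below the other controls in control 3 on average (0.869 times their mean FPKM), and it was 1.41 times the mean of the others in MCT 3. Rtp4, which encodes a receptor chaperone, was at -0.56 (SE 0.28) and Xaf1, a promoter of apoptosis, at -0.62 (SE 0.30). Both were called lower without MCT 3 (-0.93 each, edgeR adjusted p of 0.013 and 0.0461), as was Ifi44 (-0.68, 0.0169). These 3 calls are only a description, since MCT 3 was singled out for its high values in these genes.

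**Figure D2:**
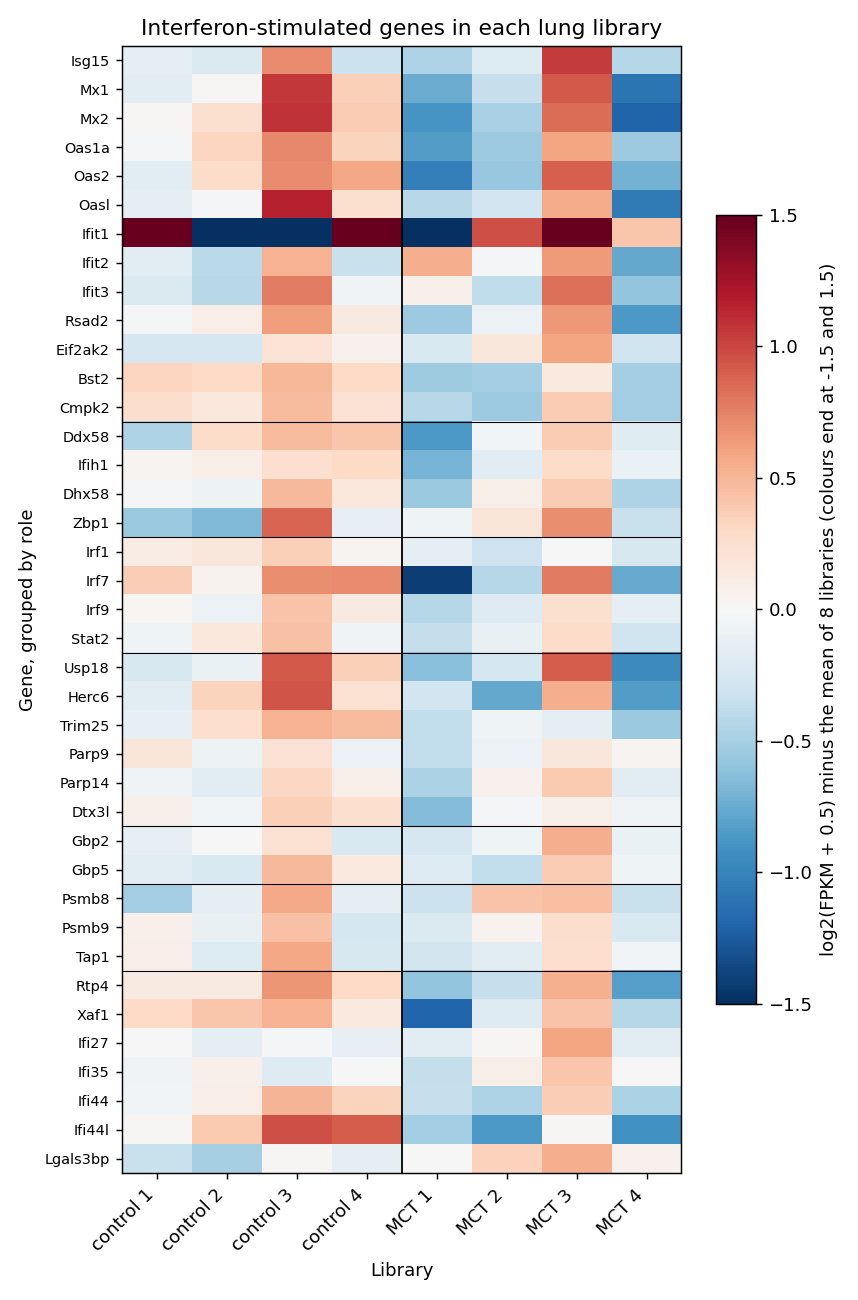
Level of each member (rows, grouped by role, in the order effectors, sensors, transcription factors, modifiers, guanylate-binding proteins, antigen processing and others) in each library (columns), as log2(FPKM + 0.5) minus the mean of the 8 libraries. Red is above and blue below that mean, and colours end at -1.5 and 1.5. The columns of MCT 3 and control 3 are red for most rows. Ifit1 departs most, in control 3. A few other rows, such as Ifi35 in control 3 and Trim25 in MCT 3, also lie below their mean.

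The size of the library 3 difference was graded across the members. In MCT 3, 15 members were at 2 or more times the mean FPKM of the other MCT libraries (2.49% of all genes tested), and 5 were at 3 or more times (0.814% of all genes), namely Ifit1 (3.80), Oas2 (3.75), Mx2 (3.27), Mx1 (3.22) and Irf7 (3.05). The lowest ratios were 1.13 for Trim25 and 1.17 for Irf1. In control 3, 3 members were at 2 or more times the mean of the other controls (3.91% of all genes), Zbp1 (3.82), Oasl (2.36) and Ifit3 (2.05), and Zbp1 alone was at 3 or more times (1.38% of all genes). At 1.5 or more times were 27 members in MCT 3 (6.45% of all genes) and 12 in control 3 (8.69%). Irf7 was at 1.23 and Oas2 at 1.42. Across 38 members without Ifit1, the 2 differences on the log2(FPKM + 0.5) scale had a Pearson r of 0.47 and a Spearman rho of 0.50. With Ifit1 these were -0.19 and 0.38, and over all 16715 genes tested they were -0.05 and -0.07. The genes share the same 8 libraries and their scaling and are not independent replicates.

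**Figure D3:**
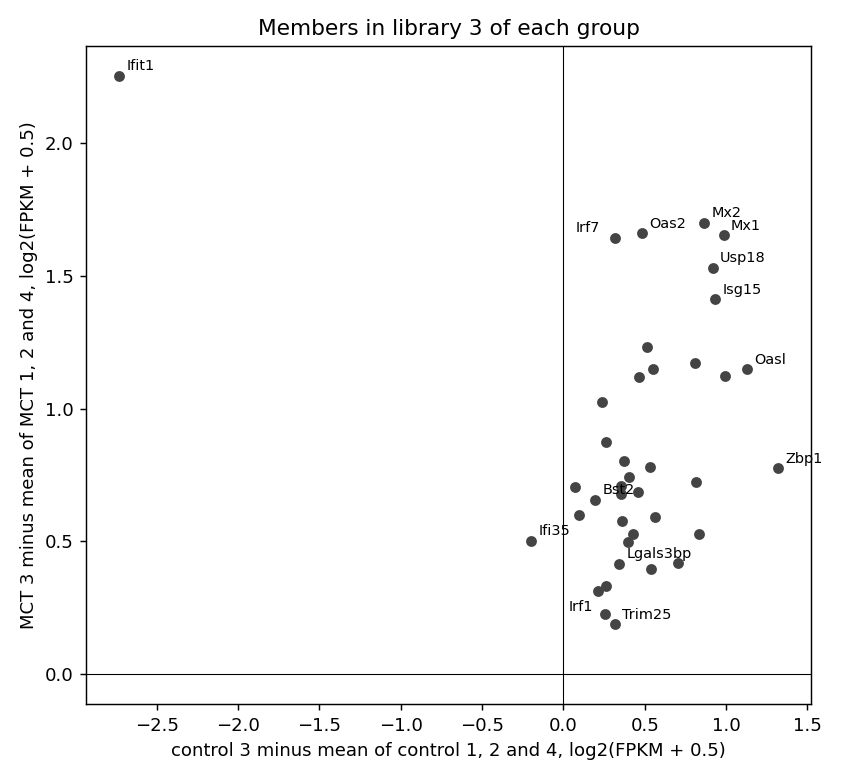
Each point is 1 of the 39 members. The horizontal axis gives control 3 minus the mean of the other controls and the vertical axis MCT 3 minus the mean of the other MCT libraries, both as log2(FPKM + 0.5). All points lie above 0 on the vertical axis, and all except Ifit1 and Ifi35 lie to the right of 0.

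Within MCT the members were also more spread than most genes. The median SD of log2(FPKM + 0.5) was 0.44 over the members in MCT and 0.29 over the members in control. Over all genes tested it was 0.20 and 0.19. The SD was larger in MCT than in control for 30 of 39 members, against 51.1% of all genes. That the MCT libraries differ in these genes was known beforehand, so the wider spread is only a description. At the low end of MCT, MCT 1 was the lowest library for 19 members, against 35.8% of all genes, and MCT 4 for 17, against 23.8%. MCT 3 was the lowest for none, against 16% of all genes. On the mean of log2(FPKM + 0.5) over the 39 members, MCT 3 was at 4.52 and control 3 at 4.47, the other controls at 3.94 to 4.20 and the other MCT libraries at 3.51 to 3.84. The labels do not say that library 3 of the groups shared an animal, batch or day, and across all genes tested the deviations of MCT 3 and control 3 from their group means had a correlation of -0.02.

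**Figure D4:**
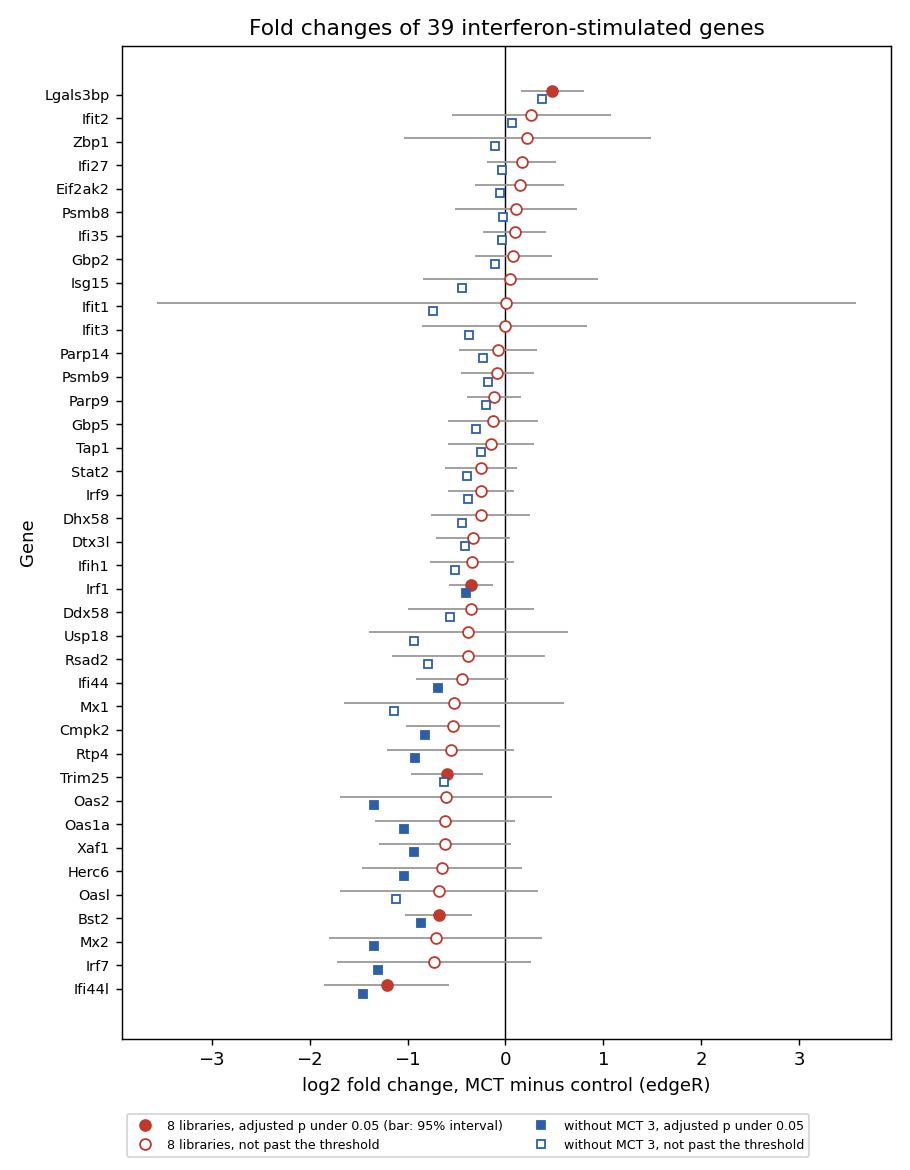
Log2 fold change (MCT minus control, edgeR) of each member with all 8 libraries (circles, bars are 95% intervals) and without MCT 3 (squares), with filled symbols for an adjusted p under 0.05. Without MCT 3 the filled squares number 12, and all lie below 0.

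Leaving out MCT 3 lowered the log2 fold change of all 39 members. The members called lower without it were Mx2, Oas1a, Oas2, Bst2, Cmpk2, Irf1, Irf7, Herc6, Rtp4, Xaf1, Ifi44 and Ifi44l, and 3 of these were also called with all 8 libraries. Leaving out both MCT 3 and control 3, which was chosen after seeing the data, gave 9 lower and none higher, against 4.07% and 5.75% of all genes tested in that edgeR fit, with 1 member higher at an unadjusted p under 0.05. With MCT 2, MCT 4, control 2 or control 3 left out, 2 of 39 members were called lower, against 5.75%, 7.38%, 6.36% and 6.81% of all genes tested in those fits. The fit without MCT 3 is 1 of 8 that each left out a library, and it is singled out for its values in these same genes, so its count is a description.

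Markers of other cell types moved in part with library 3. Among 11 T and NK cell markers, the summed level was 90.7 FPKM in MCT 3 with MCT 1, 2 and 4 at 68.2 to 71.7 FPKM. It was 143 FPKM in control 3 with the other controls at 90.4 to 127 FPKM. For 6 of these 11 markers MCT 3 was the highest MCT library, and for 7 control 3 was the highest control library. Among 8 markers chosen for plasmacytoid dendritic cells, which make much type I interferon, the sums were 67.4 FPKM in MCT 3 against 39.1 to 58.3, and 51.4 in control 3 against 25.1 to 35.6. MCT 3 was the highest MCT library for 5 of these 8 markers and control 3 the highest control library for 5. Irf8 and Tlr7, which other cells also express, made up most of these sums. Irf8 is also in the list of genes that interferon gamma induces, and Tlr7 was at 5.83 FPKM in MCT 2 and 5.81 FPKM in MCT 3. Siglech, picked after its values were seen, was low in all 8 libraries. It was at 0.63 FPKM in MCT 3 and 0.35 FPKM in control 3, with the other 6 libraries at 0 to 0.28 FPKM. Macrophage markers (8, summed) were at 766 FPKM in MCT 3, within the range of 494 to 904 of the other MCT libraries, and at 358 in control 3 against 242 to 287, with Marco at 0 in MCT 3 and all controls. B cell markers (5, summed) were at 277 FPKM in MCT 3, within the 240.03 to 380.2 of MCT 1, 2 and 4, and at 228 FPKM in control 3, above the 147 to 200.05 of the other controls. Neutrophil markers (6, summed) were at 27.4 FPKM in MCT 3, below the 35.2 to 93.4 of MCT 1, 2 and 4. In control 3 the neutrophil sum was 39.35 FPKM, above the 13.2 to 34.2 of the other controls. The part of these cells in the library 3 pattern was not tested.

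The interferon genes themselves were at 0 or at trace levels, and none passed the filter on low counts. Of 12 ligand genes in the table, 6 were at 0 in all 8 libraries (Ifna1, Ifna2, Ifne, Ifnk, Ifnl1 and Ifnl3), and a count of 0 allows up to 3 read pairs, for counting error only, which by library is 0.164 to 0.275 CPM on the scale of read pairs. The highest estimated count of any ligand was 6, about 1.65 read pairs, for Ifng in MCT 1. Ifnb1 had an estimated count of 3 in MCT 3, 1 in control 3 and 0 in the other libraries, and Ifna4 and Ifna5 had 4 each in MCT 3 and 0 elsewhere. These amount to about a read pair or less each and support no comparison.

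Of 10 receptor and kinase genes, 1 was lower, 1 higher and 8 were not past the threshold, shares close to the 9.45% lower and 11.0% higher of all genes tested. Ifnar2, a chain of the type I receptor, fell by 0.44 (SE 0.11, edgeR adjusted p = 0.0244), from 24.7 ± 3.42 to 18.3 ± 2.14 FPKM (SD, n = 4). Ifngr2, a chain of the interferon gamma receptor, rose by 0.44 (SE 0.12, adjusted p = 0.0264), from 15.1 ± 1.80 to 20.5 ± 2.62 FPKM. MCT 3 was the highest MCT library for 3 of these 10 genes and control 3 the highest control for 5.

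In the 13 measured genes of upstream sensing, 4 were higher and 1 lower, against 11.0% and 9.45% of all genes tested. Tlr3 (0.76, SE 0.22) and Tlr7 (0.91, SE 0.25), endosomal RNA receptors, rose, as did Unc93b1, which carries such receptors to endosomes (0.50, SE 0.13), and Sting1, the adaptor of DNA sensing (0.55, SE 0.15). Tbk1, the kinase that activates Irf3, fell by 0.53 (SE 0.11), with edgeR adjusted p of 0.00839 for Tbk1 and 0.0266 to 0.0357 for the others. Macrophage markers moved with these genes, since 4 of 7 tested were higher in MCT and none lower, and their part was not tested. Of the 13 sensing genes, MCT 3 was the highest MCT library for 4, against 24.6% of all genes tested. Control 3 was the highest control library for 12 of them, against 24.3%.

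Of 8 genes that restrain the response, 2 were lower and none higher, against 9.45% and 11.0% of all genes tested. The 2 were Adar, an RNA editing enzyme (-0.50, SE 0.15), and Pias1, an inhibitor of cytokine signalling (-0.49, SE 0.15). Both were at an edgeR adjusted p of 0.0431 to 0.0436. Among 27 further interferon-induced genes tested, 3 were lower (Helz2, Lgals9 and Trim34) and 2 higher (Epsti1 and Ifitm1), with a median of -0.15. The shares of these 27 genes are near the 9.45% lower and 11.0% higher of all genes tested. Helz2, a nuclear coactivator, fell by 0.87 (SE 0.14, adjusted p = 0.00374) and Lgals9, which encodes galectin 9, by 0.84 (SE 0.22, adjusted p = 0.0261). Ifitm1, which encodes a membrane protein that hinders viral entry, rose by 0.83 (SE 0.22, adjusted p = 0.028), and Epsti1 rose by 0.95 (SE 0.22, adjusted p = 0.0151). MCT 3 was the highest MCT library for 21 of these 27 genes and control 3 the highest control for 19.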

How the data were processed

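Per the submitters' processing notes, the authors used cutadapt 1.9, HISAT2 2.0.4, StringTie 1.3.4d and edgeR with the build Rnor_6.0, without a stated order or settings. The deposited table gives an estimated count and an FPKM value per gene and library, per the file headers. Those estimated counts, as deposited, are integers whose low values repeat about every 3.64 units, taken as the worth of 1 read pair. How reads shared by paralogs or strands were counted is not given in these sources.

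Counts were tested with edgeR 4.0.16 (R 4.3.3): filterByExpr (minimum count 10), TMM scaling, robust quasi-likelihood fit, two-sided, Benjamini-Hochberg adjustment over 16715 genes, threshold 0.05. Members were read from this fit. Levels are FPKM as the authors gave them. Where a symbol has several rows, that of highest mean FPKM is used. Alternatives were limma 3.58.1 on log2(FPKM + 0.5) and other pseudocounts, voom with sample weights, DESeq2 1.42.0, other filters and scaling, a replicate block, and left-out libraries. No 2 libraries of a group were duplicates (chi-square per gene at least 52.4 on the estimated counts).

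The members, the lists and the tests were chosen with earlier results of these data known. All members could be named; of the other lists, the genes called, or the most abundant tested where none was. B2m, Siglech, Marco and the ligands with values fall outside that rule and were chosen after their values were seen.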

Additional observations from a re-analysis of the deposited data

Results flagged for a closer look

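Values of 39 members in 2 groups made 78 sets of 4 libraries, and in 3 sets a single library stood well away from its group on log2 CPM. Chance gives about 1 in 20 such sets, here about 3.9. For Bst2 the gap of MCT 3 to the nearest MCT library was 0.987 of the range of the 4, with MCT 3 at 513 FPKM and the others at 321 to 328. For Isg15 it was 0.844, with MCT 3 at 38.9 FPKM and the others at 13.3 to 16.0. For Dtx3l it was 0.835 at the low end, with MCT 1 at 3.31 FPKM and the others at 5.29 to 5.88.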

How the results depend on the processing

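Over all genes, 1845 were higher and 1579 lower with all libraries, 1191 to 1946 and 975 to 1730 with 1 library left out, 968 and 685 without control 3 and MCT 3, and 618 and 298 when a log2 change of 1 or more either way was also required. Of the members, 4 were lower and 1 higher. With a replicate block 9 were lower, these 4 and Mx2, Oas1a, Cmpk2, Rtp4 and Ifi44 (over all genes 1271, with 1436 higher), without control 3 and MCT 3 again 9, and at a log2 change of 1 or more only Ifi44l (1). With 1 library left out, 2 to 12 were lower and 0 to 1 higher. The number higher was 0 with limma on log2(FPKM + 0.5), (FPKM + 0.1) or (FPKM + 1), with DESeq2 size factors, without control 1 and MCT 1, without control 3 and MCT 3, and at a log2 change of 1 or more. The 4 lower calls held with limma, DESeq2, voom weights, either filter and other scaling. Same-numbered libraries had correlations of their deviations of 0.11, 0.02, -0.02 and -0.08, so the numbers were not taken as pairs. Not every library matched best with its own number, and whether same-numbered libraries shared an animal, batch or day was not tested. The cause of these differences was not tested.

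Direction was kept in every alternative run for 25 members. For the other 14 it turned in at least 1, never past the threshold. With 1 library left out, log2 fold changes ranged from -0.44 to 0.36 (Isg15), -0.74 to 0.75 (Ifit1), -0.37 to 0.33 (Ifit3), -0.057 to 0.26 (Eif2ak2), -0.11 to 0.99 (Zbp1), -0.23 to 0.053 (Parp14), -0.11 to 0.18 (Gbp2), -0.30 to 0.042 (Gbp5), -0.040 to 0.36 (Psmb8), -0.18 to 0.075 (Psmb9), -0.25 to 0.069 (Tap1), -0.033 to 0.24 (Ifi27) and -0.034 to 0.21 (Ifi35). Without control 3 and MCT 3 they were -0.14 (Isg15), -1.14 (Ifit1), -0.012 (Gbp2), -0.013 (Ifi27) and -0.080 (Ifi35). Isg15 was at -0.026, -0.028 and -0.024 with limma at pseudocounts 0.5, 0.1 and 1, and at -0.029 with the replicate block. Ifit1 was at -0.0014 with DESeq2 size factors and -0.0012 with DESeq2, but at 0.65, 1.19 and 0.43 with limma at pseudocounts 0.5, 0.1 and 1, at 1.46 with the replicate block and at 3.31 with voom weights, none past the threshold. With voom weights Ifit3 was at 0.072 and Parp14 at 0.043, and without control 1 and MCT 1 Parp14 was at 0.014 and Parp9 at 0.0025. On log2 CPM, MCT 3 was highest for 38 members and control 3 for 36. In the 250 bases before the start alone, 16 members held an ISRE and 7 a GAS. Zbp1 had no value with the filter on FPKM of at least 1.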

Other observations

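In the list of 12 tested genes that interferon gamma induces, 1 was higher in MCT and none lower by edgeR, against 11.0% and 9.45% of all genes tested. It was Irf8, a transcription factor of macrophages and dendritic cells, at 44.4 ± 11.0 FPKM in MCT and 23.2 ± 8.16 FPKM in control (SD, n = 4; log2 fold change 0.93, SE 0.26, edgeR adjusted p = 0.0353). The median log2 fold change of the list was 0.25, against 0.03 over all genes tested. MCT 3 was the highest MCT library for 10 of these 12 genes (24.6% of all genes) and control 3 the highest control library for 11 (24.3%).

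Among 12 other genes of the MHC class I pathway, 3 were higher and none lower, against 11.0% and 9.45% of all genes tested. All 3 encode chaperones of the endoplasmic reticulum that serve many proteins: Calr (0.70, SE 0.08, edgeR adjusted p = 0.000694), Pdia3 (0.49, SE 0.08, adjusted p = 0.0028) and Canx (0.30, SE 0.08, adjusted p = 0.0352). Calr was at 644, 709, 658 and 707 FPKM in MCT 1 to 4 and at 426, 435, 402 and 402 FPKM in control 1 to 4. Neither Calr group had its highest value in library 3. B2m, the class I light chain, was at 1183, 1272, 1652 and 1271 FPKM in MCT 1 to 4 and at 1191, 1145, 1600.2 and 1308 FPKM in control 1 to 4, with library 3 highest in each group.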
